A study of Mus musculus with 15 samples.

Results

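Xenobiotic-sensing nuclear receptors and the cytochrome P450 genes they govern were followed in mouse liver. The set comprised 10 genes of the 19464 rows in the deposited table, chosen by symbol. They were the 2 receptor genes Nr1i2 and Nr1i3, the 3 Cyp2b genes Cyp2b9, Cyp2b10 and Cyp2b13, and the 5 Cyp3a genes Cyp3a11, Cyp3a13, Cyp3a16, Cyp3a25 and Cyp3a41a. Each symbol occurred on 1 row, so no row had to be preferred over another. The relatives Cyp2b19, Cyp2b23, Cyp3a41b, Cyp3a44, Cyp3a57 and Cyp3a59 were read alongside them.

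Nr1i3 encodes the constitutive androstane receptor (CAR) and Nr1i2 the pregnane X receptor (PXR), which pair with retinoid X receptors on DNA and switch on genes for drug, steroid and bile acid metabolism. Cyp2b10 is the classical CAR target in mouse liver and Cyp3a11 the classical PXR target. Cyp3a16 is known as the Cyp3a form of fetal and newborn liver, which gives way to Cyp3a11 as mice mature, and Cyp2b9, Cyp2b13, Cyp3a41a and Cyp3a44 are known as forms that are higher in females than in males in adult liver.

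The livers came from young mice, 4 wildtype and 4 Stab1-/-, taken 2 weeks after birth, and from E17.5 fetal samples, of which 4 were wildtype and 3 Stab1-/-. The labels give the strain of both genotypes as C57BL/6N;129SvJ, and the knockout removes Clever-1, the product of Stab1, from the whole body rather than from 1 cell type. Neither the labels nor the methods state the sex of the animals or whether the controls were littermates, and the labels name no drug or inducer. Levels are given as RPKM, which divides uniquely mapped reads by gene length and by the reads counted in that library. Between genes, RPKM can be set side by side only as far as their transcripts can be mapped uniquely.

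The reads counted on genes per library, in units of 1000 reads, ranged from 9659 to 10964. Stab1 was lower in every Stab1-/- library than in the wildtype libraries of its age, with 68 to 119 against 579 to 941 reads at 2 weeks and 301 to 443 against 1244 to 1868 reads at E17.5. All 12 hepatocyte marker genes were detected in each group. The summed level of 9 erythroid markers was 2695 RPKM in wildtype and 2372 RPKM in Stab1-/- livers at E17.5, against 95.4 and 119 RPKM at 2 weeks. In a whole-liver library, fewer cells of a type and less RNA per cell cannot be told apart. The libraries differed in sex-linked transcripts. All 8 libraries at 2 weeks had 44.8 to 111 RPKM of Xist and no read of Ddx3y, Eif2s3y or Kdm5d. At E17.5 wildtype replicate 4 had 0.621 RPKM of Xist and 28.2 RPKM of the Y-linked Ddx3y, Stab1-/- replicate 3 had 118 and 0.142 RPKM, and the other 5 libraries held both transcripts, with Xist at 21.7 to 73.5 RPKM and Ddx3y at 7.12 to 21.4 RPKM. Whether a fetal sample came from 1 fetus or from several is not given in the sources used here, so that n at E17.5 counts libraries. Markers of intestine and pancreas were uneven at E17.5, summing to 18.7 to 312 RPKM over 9 genes in wildtype and to 16.2 to 179 RPKM in Stab1-/- libraries, with the pancreatic Cela1 and the intestinal Guca2a the largest in the respective group.

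The upstream sequences of 5 genes are shown because the families are close copies whose levels nevertheless lay far apart. In RefSeq, all 10 genes had a start site on GRCm38.p6. The 250 bases before it are written 5′ to 3′ on the strand of the gene, and capitals mark the nuclear receptor half-sites AGGTCA and AGTTCA and the letters CAAAGTCCA known for HNF4A, a hepatocyte transcription factor, each read on both strands.
Cyp2b9 (chr7:26173159-26173408, plus strand): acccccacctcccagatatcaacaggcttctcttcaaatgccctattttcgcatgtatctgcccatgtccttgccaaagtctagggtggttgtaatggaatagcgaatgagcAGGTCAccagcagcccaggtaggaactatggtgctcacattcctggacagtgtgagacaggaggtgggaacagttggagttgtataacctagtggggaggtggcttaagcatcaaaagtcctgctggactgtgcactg
Cyp2b13 (chr7:26061245-26061494, plus strand): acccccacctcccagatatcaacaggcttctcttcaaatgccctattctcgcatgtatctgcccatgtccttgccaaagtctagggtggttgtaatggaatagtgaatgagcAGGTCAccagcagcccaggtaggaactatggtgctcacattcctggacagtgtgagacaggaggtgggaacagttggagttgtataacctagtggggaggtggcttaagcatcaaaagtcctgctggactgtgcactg
Cyp2b10 (chr7:25897408-25897657, plus strand): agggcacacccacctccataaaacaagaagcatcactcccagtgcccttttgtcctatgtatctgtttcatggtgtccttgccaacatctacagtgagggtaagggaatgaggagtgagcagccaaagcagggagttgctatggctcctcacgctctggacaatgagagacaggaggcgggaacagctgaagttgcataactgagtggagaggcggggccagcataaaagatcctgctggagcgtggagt
Cyp3a11 (chr5:145879855-145880104, minus strand): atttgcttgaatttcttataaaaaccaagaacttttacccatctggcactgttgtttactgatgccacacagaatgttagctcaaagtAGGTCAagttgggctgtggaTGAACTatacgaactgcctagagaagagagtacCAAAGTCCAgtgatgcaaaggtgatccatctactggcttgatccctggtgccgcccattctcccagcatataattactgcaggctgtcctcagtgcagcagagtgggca
Cyp3a16 (chr5:145469724-145469973, minus strand): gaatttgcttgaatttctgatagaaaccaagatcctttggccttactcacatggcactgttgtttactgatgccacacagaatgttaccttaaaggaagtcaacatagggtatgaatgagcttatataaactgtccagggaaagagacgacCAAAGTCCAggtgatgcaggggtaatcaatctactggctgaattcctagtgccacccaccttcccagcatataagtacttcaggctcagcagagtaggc
The windows of Cyp2b9 and Cyp2b13 were 99.2% identical and differed by the 2 substitutions T48C and C104T, counted from 1 at the 5′ end with the base of Cyp2b9 first. Both held AGGTCA from base -138 to base -133 before the start site, whereas the window of Cyp2b10, 70.0% identical to each, held none of these letters. The windows of Cyp3a11 and Cyp3a16 were 76.2% identical and held CAAAGTCCA from base -109 and from base -99, respectively. Cyp3a11 alone of that pair held the half-sites, with AGGTCA from base -162 and AGTTCA on the opposite strand from base -142. Across 27025 gene starts, AGGTCA occurred in 13.8% of windows of this length, AGTTCA in 11.9% and CAAAGTCCA in 0.381%, against 4, 2 and 3 of the 10 windows here. The 10 windows are not independent, since some are close copies, as in Cyp2b9 and Cyp2b13 or in Cyp3a16 and Cyp3a41a (90.9% identical). The counts were not tested against these shares. Exact matches to the paired half-sites ER6, DR4 and DR3 and to an HNF1 element were also searched. Each occurred in 0 of the 10 windows and in at most 3 of the 27025. GENCODE places the first exon of Cyp3a11 up to 145879964 and the start of Cyp2b10 at 25897620, so that by that annotation these windows reach into the gene, and positions here count from the RefSeq start. These matches describe letters in a window and not bound sites.

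Close copies also limit what unique mapping can count. Of all 50-base windows in the GENCODE transcript of Cyp3a41a, 1.39% occurred in no other gene and 93.7% occurred in Cyp3a41b as well, with coding sequences 99.9% identical. Cyp3a41a had 0 to 5 reads in every library and Cyp3a41b had 0 to 3, so that their levels, at most 0.245 and 0.136 RPKM, cover only what could be placed uniquely. For the other members the share of windows found in no other gene was 100% in Nr1i2, Nr1i3 and Cyp3a13, 88.8% in Cyp2b9, 89.8% in Cyp2b10, 72.7% in Cyp2b13, 85.2% in Cyp3a11, 89.3% in Cyp3a16 and 73.2% in Cyp3a25, which shared 25.0% with Cyp3a59. RPKM was not corrected for these shares, so levels set side by side between genes of a family carry that limit. The read length used by the authors is not given in the sources used here.

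The receptors differed in how far they had risen by 2 weeks. Nr1i2, located at chr16:38248323-38294824 on GRCm38, was measured in the wildtype libraries at 14.2, 11.7, 11.7 and 11.9 RPKM at E17.5 and at 60.3, 29.5, 33.9 and 31.9 RPKM at 2 weeks. In Stab1-/- livers it was 13.8, 12.2 and 14.0 RPKM at E17.5 and 36.1, 34.7, 35.5 and 34.9 RPKM at 2 weeks. Each 2-week library was above each fetal one, and 1 wildtype library stood apart from the rest at 2 weeks. The log2 fold change from E17.5 to 2 weeks was 2.00 (SE 0.199) in wildtype and 1.62 (SE 0.0895) in Stab1-/- livers, with adjusted p = 1.86e-06 and 4.07e-08 (edgeR).

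Nr1i3 was scarce in fetal liver and reached the level of Nr1i2 by 2 weeks. At chr1:171213970-171220701, it had 34, 49, 30 and 57 reads in wildtype and 32, 10 and 27 reads in Stab1-/- fetal livers, or 2.79 ± 0.862 RPKM (SD, n = 4) and 1.53 ± 0.763 RPKM (SD, n = 3). At 2 weeks the wildtype libraries held 57.5, 39.2, 51.5 and 42.1 RPKM and the Stab1-/- libraries 37.9, 39.9, 52.6 and 37.0 RPKM. The ages did not overlap in either genotype. Its log2 fold change with age was 4.46 (SE 0.197) in wildtype and 4.99 (SE 0.25) in Stab1-/- livers (adjusted p = 1.39e-09 and 1.92e-08, edgeR). The order of the pair thus differed between the ages, with Nr1i2 above Nr1i3 in each fetal library, and with Nr1i3 above Nr1i2 in 7 of the 8 libraries at 2 weeks.

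**Figure D1:**
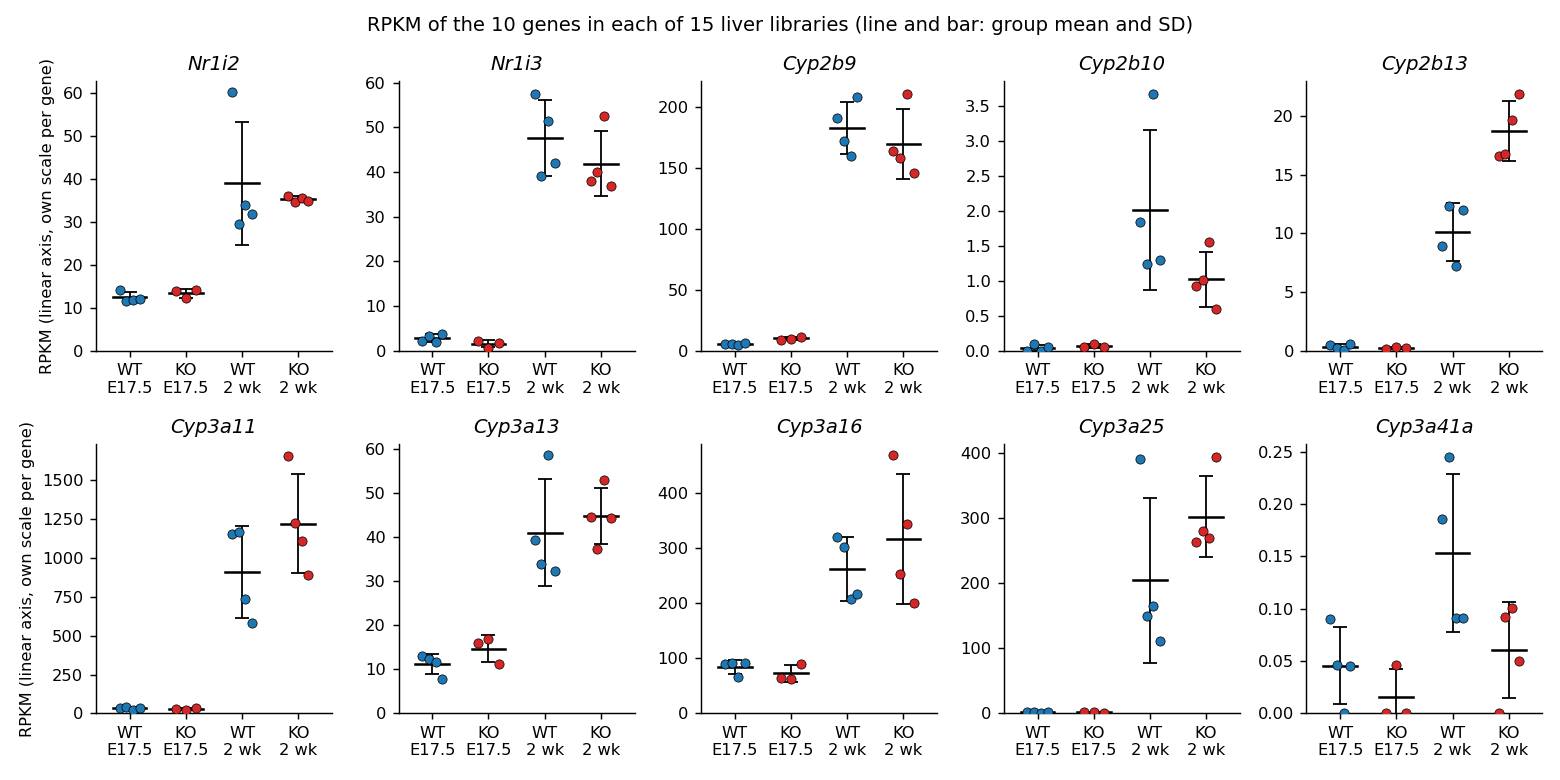
RPKM (linear axis, with its own scale for each gene) of the 10 genes in the 15 libraries, wildtype (WT) in blue and Stab1-/- (KO) in red, with horizontal lines and bars for the group mean and SD. Apart from Cyp3a41a, with at most 5 reads, every gene was higher in each 2-week library than in each fetal library of its genotype; Cyp2b9 at E17.5 and Cyp2b13 at 2 weeks separated the genotypes.

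Among the Cyp2b genes, Cyp2b9 carried nearly all of the signal at both ages. It encodes a steroid-hydroxylating P450 and lies at chr7:26173411-26210661. The wildtype libraries held 5.44, 5.10, 4.71 and 6.22 RPKM at E17.5 and 191, 172, 160 and 208 RPKM at 2 weeks. The Stab1-/- libraries held 9.16, 9.93 and 11.2 RPKM at E17.5 and 164, 158, 211 and 146 RPKM at 2 weeks. The log2 fold change with age was 5.45 (SE 0.141) in wildtype and 4.29 (SE 0.157) in Stab1-/- livers (adjusted p = 4.73e-11 and 2.45e-09, edgeR).

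Cyp2b13, at chr7:26061497-26096197 and the nearest to Cyp2b9 in coding sequence at 92.7% identity, was present at a much lower level. It had 9, 4, 2 and 11 reads in wildtype and 3, 6 and 5 reads in Stab1-/- fetal livers. At 2 weeks it was 8.96, 12.4, 7.18 and 11.99 RPKM in wildtype and 16.6, 16.8, 19.7 and 21.9 RPKM in Stab1-/- livers. All Stab1-/- libraries at that age lay above all wildtype libraries. Its mean fetal level was 0.324 RPKM in wildtype and 0.236 RPKM in Stab1-/- livers, and its mean level at 2 weeks 10.1 and 18.7 RPKM, respectively. At 2 weeks Cyp2b9 exceeded Cyp2b13 in every library of either genotype.

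Cyp2b10, the inducible CAR target, was close to the limit of detection. A total of 3 reads were counted over the 4 wildtype and 4 reads over the 3 Stab1-/- fetal libraries. At 2 weeks the wildtype libraries had 36, 23, 73 and 26 reads and the Stab1-/- libraries 17, 20, 28 and 11 reads, corresponding to 2.01 ± 1.14 and 1.02 ± 0.393 RPKM (SD, n = 4 each). Per total reads, the level at 2 weeks was 54.2 times the fetal level in wildtype livers (95% exact interval 18.2 to 266) and 15.1 times in Stab1-/- livers (5.65 to 56.7), intervals that cover counting error only. Of the other Cyp2b genes, Cyp2b19 had at most 3 reads in a library and Cyp2b23 had 0 reads in all 15.

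The Cyp3a family was far more abundant than the Cyp2b family and changed its leading member between the ages. Its 9 listed genes together amounted to 143 ± 20.1 RPKM (SD, n = 4) in wildtype and 137 ± 19.0 RPKM (SD, n = 3) in Stab1-/- fetal livers, and to 1566 ± 517 and 2045 ± 417 RPKM (SD, n = 4 each) at 2 weeks. Cyp3a16 led at E17.5 in all 7 libraries, Cyp3a11 at 2 weeks in all 8.

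Cyp3a11, the main inducible Cyp3a form of adult mouse liver, lies at chr5:145854426-145879964. Its levels at E17.5 were 33.4, 38.6, 23.2 and 36.7 RPKM in wildtype and 28.3, 20.4 and 32.6 RPKM in Stab1-/- livers. At 2 weeks they were 1152, 1166, 738 and 584 RPKM in wildtype and 1652, 1222, 1111 and 892 RPKM in Stab1-/- livers. The genotypes overlapped at both ages. With age it rose by 5.14 (SE 0.248) on the log2 scale in wildtype and by 5.71 (SE 0.248) in Stab1-/- livers (adjusted p = 2.97e-09 and 7.49e-09, edgeR).

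Cyp3a16, the fetal form, at chr5:145436309-145469723, did not fall. The fetal libraries held 88.7, 92.0, 65.2 and 92.0 RPKM in wildtype and 64.98, 62.8 and 89.4 RPKM in Stab1-/- livers, against 320, 302, 207 and 216 RPKM and 469, 252, 344 and 201 RPKM at 2 weeks. Every 2-week library was above every fetal one. The log2 fold change with age was 1.98 (SE 0.155) in wildtype and 2.33 (SE 0.253) in Stab1-/- livers (adjusted p = 2.12e-07 and 8.65e-06, edgeR).

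The exchange of the leading form was therefore one of proportion. The mean log2 ratio of Cyp3a11 to Cyp3a16, taken on RPKM plus 0.1, was -1.37 ± 0.101 (SD, n = 4) in wildtype and -1.42 ± 0.21 (SD, n = 3) in Stab1-/- fetal livers, so that Cyp3a16 was 2.58 and 2.68 times as high. At 2 weeks it was 1.77 ± 0.227 and 1.98 ± 0.275 (SD, n = 4 each), with Cyp3a11 3.40 and 3.96 times as high. The libraries of the 2 ages were separate in both genotypes. The ratio differed between ages by 3.13 (SE 0.124) in wildtype and 3.41 (SE 0.183) in Stab1-/- livers, with two-sided exact permutation p = 0.02857 and 0.05714, the smallest that 4 against 4 and 3 against 4 libraries allow, and 0.1143 for both after Benjamini-Hochberg adjustment over the 4 ratio comparisons. Between genotypes it differed by 0.22 (SE 0.178) at 2 weeks and by -0.05 (SE 0.131) at E17.5, with overlapping libraries and exact permutation p = 0.2857 and 0.6857 (adjusted 0.381 and 0.6857).

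**Figure D2:**
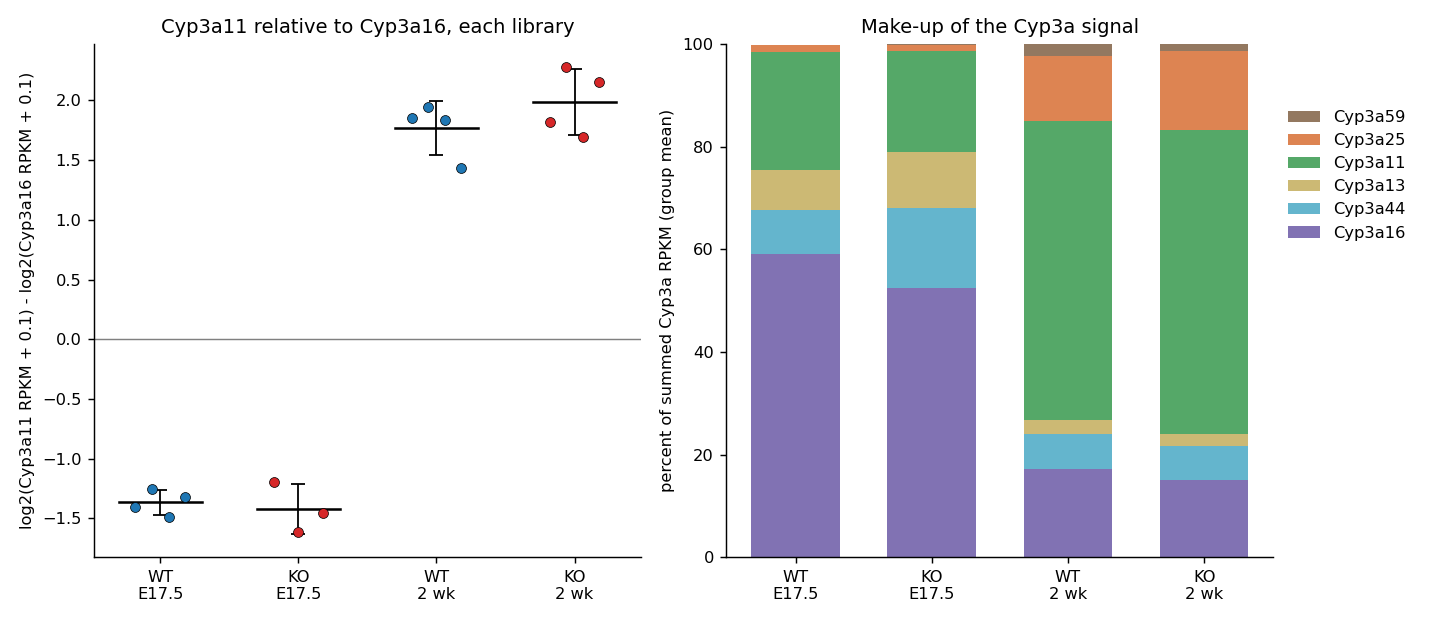
Left, log2 ratio of Cyp3a11 to Cyp3a16 (RPKM + 0.1) in each library of wildtype (WT, blue) and Stab1-/- (KO, red) livers, with group mean and SD. Right, mean percent of the summed RPKM of the Cyp3a family contributed by its 6 largest genes; Cyp3a16 went from 59.1% to 17.2% in wildtype and Cyp3a11 from 23.0% to 58.3%, and the ratio was below 0 in all 7 fetal and above 0 in all 8 libraries at 2 weeks.

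In Stab1-/- livers Cyp3a16 made up 52.5 ± 3.29% (SD, n = 3) of the summed Cyp3a RPKM at E17.5 and 15.1 ± 3.04% (SD, n = 4) at 2 weeks, while Cyp3a11 made up 19.7 ± 2.87% and 59.2 ± 4.81%. Cyp3a44, a form close to Cyp3a16 upstream of its start (92.9% identical over the 250 bases), made up 8.47 ± 3.85% in wildtype and 15.6 ± 2.13% in Stab1-/- fetal livers. Its fetal levels were 17.99, 12.4, 12.8 and 4.67 RPKM in wildtype and 17.3, 22.0 and 24.6 RPKM in Stab1-/- livers, and the lowest value belonged to the wildtype library with least Xist. The genotype difference in Cyp3a44 at E17.5, 0.89 (SE 0.339) on the log2 scale, did not pass the test (adjusted p = 0.33, edgeR), and the part of sex in it was not tested.

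Cyp3a25 had the steepest rise of the members. At chr5:145977194-146009618, it had 52, 52, 29 and 31 reads in wildtype and 39, 35 and 20 reads in Stab1-/- fetal livers. At 2 weeks it was 392, 151, 165 and 112 RPKM in wildtype and 263, 281, 271 and 395 RPKM in Stab1-/- livers. The wildtype libraries were scattered, with replicate 1 far above the other 3. The log2 fold change with age was 7.08 (SE 0.429) in wildtype and 7.89 (SE 0.29) in Stab1-/- livers (adjusted p = 2.07e-08 and 2.46e-09, edgeR). Its closest relative Cyp3a59, with 97.5% identity of coding sequence, had 1 to 3 reads in each fetal library and 350 to 1060 reads at 2 weeks, or 373 times the fetal level per total reads in wildtype (95% exact interval 189 to 864) and 232 times in Stab1-/- livers (112 to 578), again for counting error only. Cyp3a57 had at most 3 reads in a fetal library and 6 to 22 at 2 weeks, or 0.728 ± 0.432 and 0.966 ± 0.189 RPKM (SD, n = 4 each) in wildtype and Stab1-/- livers.

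Cyp3a13, which lies apart from the other Cyp3a genes at chr5:137892932-137921619 and is known to be expressed in intestine as well, made up 7.97% of the summed Cyp3a RPKM at E17.5 and 2.87% at 2 weeks in wildtype livers. It was 13.1, 12.4, 11.7 and 7.81 RPKM in wildtype and 16.0, 16.9 and 11.2 RPKM in Stab1-/- fetal livers. At 2 weeks it was 39.3, 33.9, 58.8 and 32.5 RPKM and 44.6, 37.5, 53.1 and 44.4 RPKM, respectively. The increase with age was 2.23 (SE 0.217) in wildtype and 1.83 (SE 0.163) in Stab1-/- livers on the log2 scale (adjusted p = 1.48e-06 and 1.79e-06, edgeR). The uneven intestinal markers at E17.5 were given above and their part in Cyp3a13 was not tested.

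All 9 members that passed the filter on low counts were thus called higher at 2 weeks than at E17.5 in wildtype livers, where 34.9% of the 13369 genes tested were called higher and 37.0% lower (71.9% in all), and the same 9 in Stab1-/- livers, where 35.7% of 13433 were called higher and 36.8% lower (72.5% in all). Cyp2b10 and Cyp2b13 passed that filter through their 2-week reads alone and so had to differ. The 7 members with at least 10 reads in every library of both ages had a median log2 fold change of 4.46 in wildtype and 4.29 in Stab1-/- livers, against -0.01 over all genes tested in either genotype. The groups did not overlap for any of these 9, as was the case for 69.1% and 72.0% of all genes tested in wildtype and Stab1-/- livers, 21.1% and 28.0% with the 2-week libraries higher. Cyp3a41a was the member that did not pass the filter.

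These fold changes came from whole-liver counts scaled by TMM over all genes tested, and the make-up of the liver differed between the ages. The 9 erythroid markers were called lower at 2 weeks in both genotypes, with a median log2 fold change of -8.46 in wildtype and -8.79 in Stab1-/- livers, while 10 and 8 of 12 hepatocyte markers were called higher. When the libraries were scaled to the hepatocyte markers instead, the median of all genes moved to -1.65 in wildtype and -1.42 in Stab1-/- livers. The markers themselves changed unevenly with age in wildtype, from 18.5 to 1527 RPKM for Apoc3 and from 3000 to 2312 RPKM for Fgb. Cell share and the markers' own change with age cannot be told apart in this scaling. Relative to hepatocyte genes, Cyp3a11 still rose by 3.52 and 4.31, Nr1i3 by 2.82 and 3.59, Cyp2b9 by 3.81 and 2.89 and Cyp3a25 by 5.50 and 6.49 on the log2 scale in wildtype and Stab1-/- livers, respectively. Nr1i2 no longer passed the test in either genotype, at 0.39 (adjusted p = 0.0743) and 0.21 (adjusted p = 0.214, edgeR). Cyp3a16 was at 0.36 in wildtype (adjusted p = 0.0725) and at 0.95 in Stab1-/- livers (adjusted p = 0.00925, edgeR). The remaining 7 members tested in wildtype livers, Cyp3a13 with 0.62 the lowest of them, still passed the test. The ages also differed in sex-linked transcripts. Ddx3y had 0 reads in every 2-week library, 362 to 1398 in wildtype fetal libraries and 7 to 670 in Stab1-/- fetal libraries. The part of sex in the changes with age was not tested.

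**Figure D3:**
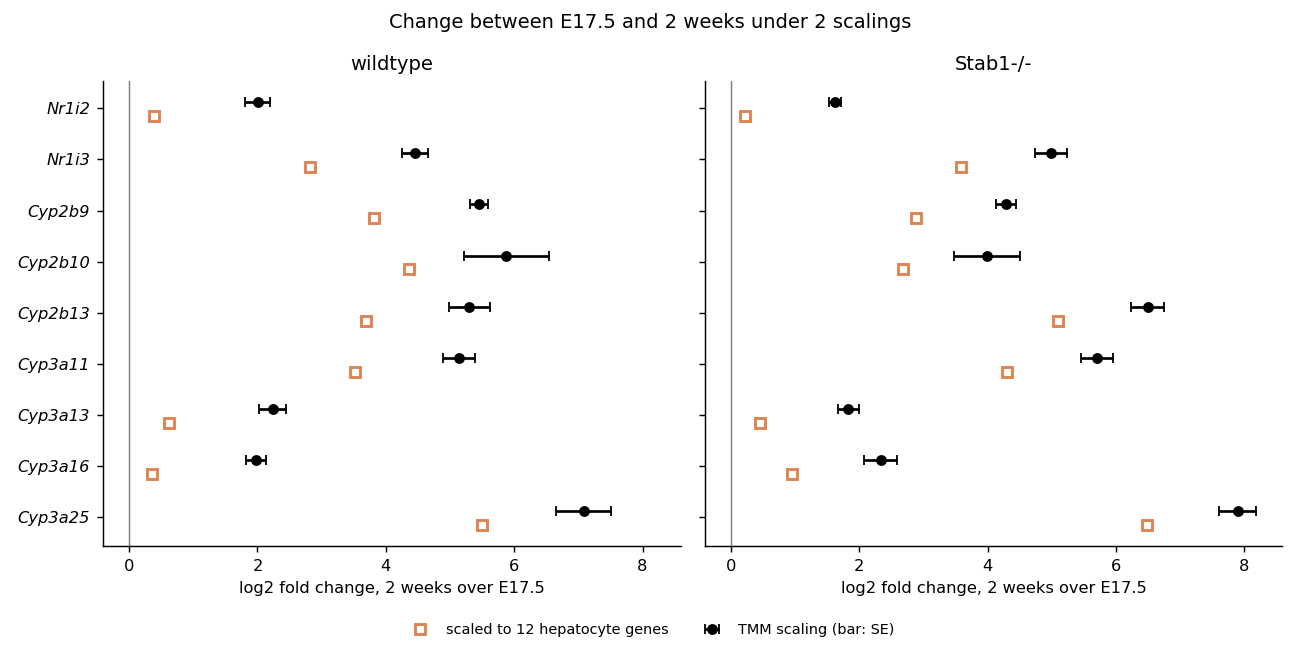
Log2 fold change from E17.5 to 2 weeks of the 9 members that passed the filter, in wildtype (left) and Stab1-/- livers (right), with TMM scaling over all genes tested (filled circles, bars for SE) and with scaling to 12 hepatocyte marker genes (open squares). Each value is lower with hepatocyte scaling, and Nr1i2 and, in wildtype, Cyp3a16 lie near 0.

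The genotypes were then compared at each age. Neither receptor was called at either age. At 2 weeks 1 of the 9 members tested was called, against 2.67% of the 12716 genes tested (0.936% higher and 1.74% lower). This was Cyp2b13, which was higher in Stab1-/- livers by 0.80 (SE 0.176) on the log2 scale, from 10.1 ± 2.49 to 18.7 ± 2.54 RPKM (SD, n = 4 each; adjusted p = 0.0358, edgeR). The call rested on all but 2 of the 8 libraries, since leaving out any Stab1-/- replicate or wildtype replicate 1 or 3 gave values of 0.68 to 0.88 with adjusted p = 0.0581 to 0.0848. The ranges of the other 8 tested members overlapped between genotypes, while 14.9% of all genes tested had ranges that did not, 10.4% with the Stab1-/- libraries higher. RPKM values, and ranges taken from them at either age, carry no TMM scaling and can differ from the edgeR values. By RPKM the mean of Cyp3a11 in Stab1-/- livers at 2 weeks was 134% of the wildtype mean, against 1.26-fold in edgeR.

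Cyp2b9, with almost the same sequence upstream, differed by -0.20 (SE 0.128) at that age and was not called (adjusted p = 0.363, edgeR). Cyp2b10 was at -1.08 (SE 0.384) with adjusted p = 0.128. Without wildtype replicate 3, which alone held 73 of the 158 wildtype reads, Cyp2b10 was at -0.60. Cyp3a11 differed by 0.33 (SE 0.213), Cyp3a16 by 0.18 (SE 0.212), Cyp3a13 by 0.03 (SE 0.183), Nr1i2 by -0.22 (SE 0.182) and Nr1i3 by -0.28 (SE 0.144). Cyp3a25 differed by 0.50 (SE 0.311, adjusted p = 0.356), and without wildtype replicate 1, its highest wildtype library, by 0.99 with adjusted p = 0.0281 (edgeR). That fit kept Stab1-/- replicate 4, which at 395 RPKM lay above the nearest Stab1-/- library at 281 RPKM.

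At E17.5 the call fell on the other gene of the pair. Cyp2b9 was higher in Stab1-/- than in wildtype fetal livers, at 10.1 ± 1.01 RPKM (SD, n = 3) against 5.37 ± 0.643 RPKM (SD, n = 4), a log2 fold change of 0.97 (SE 0.123, adjusted p = 0.00952, edgeR). It was 1 of 7 members tested, where 0.366% of the 13388 genes tested were called (0.194% higher and 0.172% lower), and its groups did not overlap, as for 12.2% of all genes, 2.91% with the Stab1-/- libraries higher. With each library left out in turn it was 0.90 to 1.05, with adjusted p of up to 0.0481 (edgeR). Among wildtype libraries the highest level, 6.22 RPKM, was in the library with least Xist, and without that library the difference was 1.04 (adjusted p = 0.0171, edgeR). The library of Stab1-/- replicate 3, without appreciable Ddx3y, held the highest Stab1-/- level of 11.2 RPKM, and without it the difference was 0.90 (adjusted p = 0.0457, edgeR). Mean Ddx3y at E17.5 was 17.2 RPKM in wildtype and 8.82 RPKM in Stab1-/- livers. Leaving out single libraries does not separate sex from genotype, and the part of sex in the Cyp2b9 difference was not tested.

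The remaining members tested at E17.5 were not called. Nr1i3 was lower in Stab1-/- fetal livers by 0.80 on the log2 scale as a value that missed the threshold (SE 0.364, adjusted p = 0.389, edgeR), and Cyp3a13 was at 0.44 (SE 0.198, adjusted p = 0.384). Nr1i2 differed by 0.17 (SE 0.103), Cyp3a11 by -0.22 (SE 0.181), Cyp3a16 by -0.16 (SE 0.15) and Cyp3a25 by -0.30 (SE 0.321). Cyp2b10, Cyp2b13 and Cyp3a41a had too few reads for the filter.

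**Figure D4:**
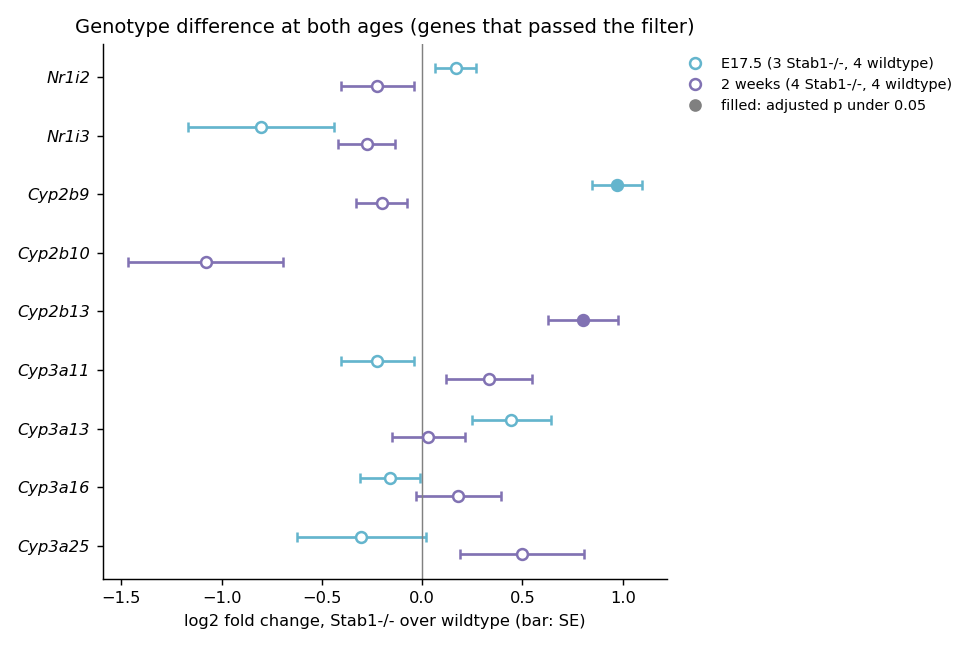
Log2 fold change of Stab1-/- over wildtype at E17.5 (light blue) and at 2 weeks (purple) for the members that passed the filter at that age, with bars for SE and filled circles for an adjusted p under 0.05. Cyp2b9 at E17.5 (0.97) and Cyp2b13 at 2 weeks (0.80) were called, and the other values were not.

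Whether the genotype difference itself changed with age was tested across all 15 libraries. Of 9 members 1 was called, Cyp2b9, whose difference was larger at E17.5 than at 2 weeks by 1.14 (SE 0.188) on the log2 scale (adjusted p = 0.015, edgeR), where 1.81% of the 13885 genes tested were called (1.01% higher and 0.799% lower). When scaled to the hepatocyte markers this difference was 0.93 and no longer passed (adjusted p = 0.0964). For Cyp2b13 the corresponding value was -1.22 (SE 0.612, adjusted p = 0.242), so that its genotype difference was not shown to differ between the ages.

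Partners and cofactors of the receptors were read from a list of 20 genes, of which 19 were in the table. In edgeR 0 were called between genotypes, of 19 tested at 2 weeks and 17 at E17.5. An unadjusted p under 0.05 was reached by 5 at each age, beside 2975 of 12716 genes at 2 weeks and 1728 of 13388 at E17.5. DESeq2 called 1 at 2 weeks and 0 at E17.5, beside 861 of 13026 and 235 of 14635 genes. Between ages 12 of 19 rose and 2 fell in wildtype, and 12 rose and 4 fell in Stab1-/- livers, beside 71.9% and 72.5% of all genes called in either direction. Nr0b2, which encodes the small heterodimer partner SHP, had 2 to 9 reads in wildtype and 5 to 9 in Stab1-/- fetal libraries, against 293 to 721 and 481 to 560 at 2 weeks, so that it too passed the filter through its 2-week reads. Rxrg, a minor retinoid X receptor of liver, went from at most 3 reads in a fetal library to 36 to 67 reads at 2 weeks. Por, the reductase that passes electrons to every microsomal P450, rose by 2.11 (SE 0.164) in wildtype and by 1.59 (SE 0.128) in Stab1-/- livers, and when scaled to hepatocyte genes was at 0.49 (adjusted p = 0.00871) and 0.21 (adjusted p = 0.19, edgeR), respectively. The chaperone gene Hsp90aa1, which holds CAR in the cytoplasm, fell by 1.34 (SE 0.142) in wildtype and by 1.08 (SE 0.129) in Stab1-/- livers.

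A list of 38 further genes known as targets of CAR or PXR gave a mixed picture between genotypes. At 2 weeks 4 of 34 tested were called higher and 3 lower in Stab1-/- livers, beside 0.936% and 1.74% of all genes tested, and their median log2 fold change was -0.04. Cyp2c50 was higher by 1.47 (SE 0.244), from 16.6 to 38.9 RPKM in wildtype to 60.9 to 93.4 RPKM in Stab1-/- libraries. Cyp2c54 was higher by 2.01 (SE 0.359), Cyp2c29 stood at 334 ± 32.8 against 206 ± 17.7 RPKM, and Slco1a4, a transporter for the uptake of bile acids and drugs, was higher by 0.71 (SE 0.123). Lower were the glutathione transferase genes Gstm3, by -1.19 (SE 0.194), and Gstm2, by -0.86 (SE 0.125), and the bilirubin-conjugating Ugt1a1, by -0.80 (SE 0.171). The adjusted p of the 7 ran from 0.00537 for Gstm2 to 0.0328 for Ugt1a1 (edgeR). The Ugt1a genes share exons, so that their reads may be split between them. With GC-content offsets Cyp2c50, Slco1a4 and Cyp2c29 no longer passed, at 1.12, 0.48 and 0.40 with adjusted p = 0.0596, 0.0805 and 0.0914.

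At E17.5 0 of 30 tested targets were called in edgeR, beside 0.366% of all genes tested. An unadjusted p under 0.05 was reached by 8 of them, beside 1728 of 13388 genes, and at 2 weeks by 17 of 34 targets, beside 2975 of 12716. DESeq2 called 2 targets at E17.5, beside 235 of 14635 genes. Between ages 29 of 34 rose and 1 fell in wildtype, and 29 rose and 3 fell in Stab1-/- livers, beside 34.9% higher and 37.0% lower of all genes tested in wildtype and 35.7% and 36.8% in Stab1-/- livers. Sult2a1 had 6 to 81 reads in the wildtype fetal libraries and 5725 to 12118 at 2 weeks, and Cyp2c29 had 7 to 31 and 3604 to 4069. Cyp2c55 had 1 read over the 4 wildtype fetal libraries and 560 over the 4 at 2 weeks. Genes with so few fetal reads passed the filter on low counts mainly through their 2-week libraries. The exporter gene Abcc4 fell by 1.18 on the log2 scale. Slco1a4 was listed at 0 reads in the 3 Stab1-/- fetal libraries and at 3 to 17 reads in the 4 wildtype ones. Against a floor of 3 reads per library, its level at 2 weeks in Stab1-/- livers was at least 1088-fold higher.

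Across the 15 libraries, likeness of pattern was described by Pearson's r of log2(RPKM + 0.1) over 12042 genes with a mean of at least 1 RPKM. The libraries fall into 2 ages, so that high values are shared by all genes that rise, and no test was made. The nearest to Nr1i2 were Rhod, Fmo5 and Eva1a (r = 0.987, 0.985 and 0.984), and to Nr1i3 Zfand3 and Stk40 (0.990 and 0.989). Igf1, Scp2 and Pls3 were nearest to Cyp3a11 (0.997, 0.995 and 0.995), and Ugt2b36, Rmdn2 and Akr1c14 to Cyp3a16 (0.976, 0.974 and 0.974). Ranked highest among the members were Cyp3a25 for Nr1i2 (rank 45, r = 0.967) and Cyp3a11 for Nr1i3 (67, 0.977) and for Cyp3a16 (7, 0.972). The lowest of those compared was Cyp3a13 for each, at ranks 1055, 1600 and 1741 (r = 0.914, 0.89 and 0.859), respectively.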

How the data were processed

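Liver RNA-seq of 15 libraries in 4 groups was analysed. The authors deposited, per gene and library, the count of uniquely mapped reads, the RPKM (recomputed from the counts within 5.11e-13 percent) and a coverage value in percent for each gene. Libraries were prepared by Illumina protocols at BGI. The aligner, build, annotation, read length and strand setting are not given in the sources used here. Group and replicate come from the labels, which do not say how replicates relate, so p-values measure only the spread between these samples. Library totals of 9659 to 10964 (in units of 1000 reads) set the precision, and replicates differed beyond sampling noise (chi-square per degree of freedom of at least 5.41).

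Counts were tested with edgeR 4.0.16 (TMM, filterByExpr with minimum counts of 10 and 15, quasi-likelihood test, two-sided) over all genes, with Benjamini-Hochberg adjustment and a threshold of 0.05, within each age, within each genotype and as genotype by stage interaction. The stage and genotype comparisons share libraries. Ratios were compared by exact permutation tests on RPKM + 0.1. Alternatives were DESeq2 1.42.0, median-of-ratios normalization, no filter, the replicate block, all 15 libraries in 1 fit, GC-content offsets (98.7% of rows placed), hepatocyte scaling, pseudocounts of 1 and 0.01 and each library left out. On simulated counts with 200 genes changed by 2 on the log2 scale, edgeR recovered 199 at 2 weeks (16 false calls among 12722 genes) and 194 at E17.5 (18 among 13561). Recovery of smaller changes, such as those of the members between genotypes, was not simulated.

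The members and lists were chosen with earlier results of these data known. Named were the 10 members, Stab1, the listed relatives, at most 6 called genes per list and genotype comparison or interaction, at most 3 per direction and list between ages, and the 3 genes most like each of 4 members. Cyp2c29 and the sex-linked genes were named after their values were seen. Some results that these rules would name are not reported here. Promoters come from RefSeq (GRCm38.p6), transcripts and positions from GENCODE vM21 (GRCm38).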

Additional observations from a re-analysis of the deposited data

Results flagged for a closer look

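In groups of 4 libraries, a sample was singled out where its gap to the nearest other was large against the range of the group. Of 33 groups of members and ratios examined, 4 were singled out, and chance gives about 1 in 20, or 1.65. Nr1i2 was 14.2 RPKM in wildtype replicate 1 at E17.5, against 11.9 RPKM in the nearest library. It was 60.3 RPKM in wildtype replicate 1 at 2 weeks, where the nearest library had 33.9 RPKM. Cyp3a16 was 65.2 RPKM in wildtype replicate 3 at E17.5, below the 88.7 RPKM of the nearest. Cyp3a25 was 395 RPKM in Stab1-/- replicate 4 at 2 weeks, above the nearest at 281 RPKM.

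The genotype effect differed between the ages in the interaction test for 6 named genes, given as the effect at E17.5 minus that at 2 weeks on the log2 scale (edgeR). They were named because they were called. Among the members 1 of 9 tested was called, and among the further targets 4 of 34 were called higher and 1 lower. Of all genes tested, 1.81% were called (1.01% higher and 0.799% lower). Cyp2b9 was at 1.14, Gstm2 at 1.23, Gstm3 at 1.38, Ugt1a9 at 2.02 and Ephx1 at 0.997. The adjusted p of Ephx1, at 0.0461, was the highest of the 6, and it lost the call without any 1 of 12 of the 15 libraries. The call was lost without any 1 of 8 libraries for Ugt1a9, 7 for Gstm2, 3 for Gstm3, 2 for Slco1a4 and 0 for Cyp2b9. Scaled to hepatocyte genes, Slco1a4 alone of the 6 stayed called, and the others had adjusted p = 0.0854 to 0.116. Ugt1a9 had 28 to 99 reads in Stab1-/- and 9 to 18 in wildtype fetal livers, and without Stab1-/- replicate 1 its value was 1.39 (adjusted p = 0.14). The fitted value of Slco1a4, -6.76, depends on the count that edgeR adds, since its Stab1-/- fetal libraries were at 0 reads.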

How the results depend on the processing

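Over the alternatives, 646 fold changes of members were recomputed, of which 631 kept their side of the threshold, 12 lost the call and 3 gained it. No called value changed sign, and 9 values that were not called did, 6 of them for Cyp3a13, 2 for Cyp3a16 and 1 for Nr1i2, all between genotypes at 2 weeks. The members called were 1 at 2 weeks and 1 at E17.5. The labels give replicate numbers without saying that they pair libraries. Deviations of same-numbered libraries correlated at 0.195, 0.00933, 0.178 and 0.138 at 2 weeks, over 0.1 in 3 of 4 pairs, and at -0.159 to 0.0101 at E17.5, and not every library correlated best with its own number, so the numbers were not taken as a pairing. In a fit with a replicate block, 2 members were called at 2 weeks and 0 at E17.5, and the same numbers resulted with GC-content offsets and the block. Cyp2b10 joined at 2 weeks (-1.03, adjusted p = 0.0303, and -0.98, 0.0418), and Cyp2b9 was lost at E17.5 (1.03, adjusted p = 0.0898, and 1.01, 0.0588). Leaving out a library gave 0 to 1 members at 2 weeks, and without wildtype replicate 1 the 1 called was Cyp3a25. Scaled to hepatocyte genes, 0 members were called in the interaction. Stage differences of the ratio of Cyp3a11 to Cyp3a16 ranged from 3.07 to 3.24 in wildtype with a library left out, where 3 against 4 libraries cannot go below an exact p of 0.05714. Under hepatocyte scaling, which lowered the median of all genes by construction, Gadd45b in wildtype went from 0.12 (not called) to -1.51 and Gstm3 in Stab1-/- livers from 0.79 to -0.62 between the ages. Genes called over the whole table numbered 340 at 2 weeks, 49 at E17.5 and 251 in the interaction; DESeq2 called 861, 235 and 1058, the block 1181 and 23, GC-content offsets with the block 737 and 32, and a single fit 703 at 2 weeks. Without 1 library they were 116 to 648, 27 to 46 and 30 to 684. Counts under about 10 reads, as in fetal Cyp2b10, Cyp2b13 and Cyp3a59, bound what could be tested. The causes of the other shifts were not tested.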
